A study of Mus musculus with 6 samples.

Results

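The 10 genes described here encode surface proteins through which a myeloid cell raises or restrains an immune response. They were chosen by name, as the B7 ligands Cd80, Cd86, Cd274, Pdcd1lg2 and Icosl, the receptor Cd40, and the inhibitory myeloid receptors Cd200r1, Sirpa, Lilrb4 and Pirb. All 10 genes of the list were found among the 46095 gene symbols of the count table, with Lilrb4 under its present symbol Lilrb4a, and all 10 had enough counts to be tested. The genes were measured in the mouse microglial line BV2, which is immortalized, either left without sTREM-1 (CON group, 3 libraries) or stimulated with the recombinant protein at 1 μg/mL for 6 h (sTREM-1 group, 3 libraries). sTREM-1 is the soluble form of TREM-1, a receptor of myeloid cells. Both groups are cultures of 1 cell line, and no source used here says whether the libraries came from separate experiments, so p-values measure only the spread between these libraries. The libraries held 40070633 to 45877107 counts each. Of the 12 markers of microglia and macrophages looked up, 10 had a mean above 1 CPM (counts scaled to a common library size), and their summed level ran from 2800 to 2830 CPM in the CON group and from 3090 to 3160 CPM in the sTREM-1 group. Most of this difference was Csf1r, whose mean was 520.7 CPM in the CON and 752.9 CPM in the sTREM-1 group, while Cd68 (605.2 and 589.0 CPM) and Tyrobp (300.4 and 292.6 CPM) did not pass the test. P2ry12, a gene of resting microglia, had a mean under 1 CPM over all 6 libraries, with 0.67 CPM in the CON and 1.13 CPM in the sTREM-1 group. Tmem119 (1.47 and 1.45 CPM) and Cx3cr1 (0.94 and 1.77 CPM, called higher) were also low. Aif1 was listed at 0 in all libraries. The markers of T cells summed to at most 0.0657 CPM in any library. The 4 markers of dendritic cells, which carry CD80 and CD86 at high levels, summed to 19.4 to 22.6 CPM in the CON group and to 16.4 to 18.7 CPM in the sTREM-1 group. Flt3 was near 0, while the 3 others, Batf3, Zbtb46 and Itgax, had means above 1 CPM. The part of these 4 markers in the results was not tested.

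A T cell that meets its antigen needs a further signal from the presenting cell before it responds. CD80 and CD86 give that signal through CD28 and take it away through CTLA4, ICOSL acts through ICOS, and CD40 receives the CD40 ligand of helper T cells and licenses the presenting cell. PD-L1 (Cd274) and PD-L2 (Pdcd1lg2) bind PD-1 and dampen the T cell. The inhibitory receptors act on the myeloid cell itself: CD200R1 binds CD200, SIRPα binds CD47 as the "do not eat me" signal, and PIR-B and LILRB4 carry tyrosine motifs in their tails that recruit the phosphatases SHP-1 and SHP-2. In microglia, CD86 and CD40 are widely used as markers of activation.

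Compared with the CON group, the stimulatory ligands and Cd40 were down-regulated, while the PD-1 ligands did not pass the test and the inhibitory receptors moved in different directions. Of the 10 genes, 5 were lower and 1 was higher after sTREM-1 by the quasi-likelihood test of edgeR, with p-values adjusted by Benjamini-Hochberg over all 14120 tested genes and called under 0.05. Among all tested genes, 30.5% were called at this threshold, 14.1% as lower and 16.5% as higher. The lower genes were Cd80, Cd86, Cd40, Icosl and Lilrb4a, and the higher gene was Pirb. The median log2 fold change of the 10 genes was -0.12, against -0.0017 over all tested genes, and their median absolute log2 fold change was 0.27, against 0.13. The groups did not overlap in CPM for 7 of the 10 genes, where the share over all tested genes was 40.7%. If a call also needed a change of 1.2-fold or more, Cd80, Cd86 and Cd40 were lower and Pirb was higher, and 10.7% of all tested genes passed. In such bulk samples, fewer cells of a kind and less RNA per cell cannot be told apart.

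**Figure D1:**
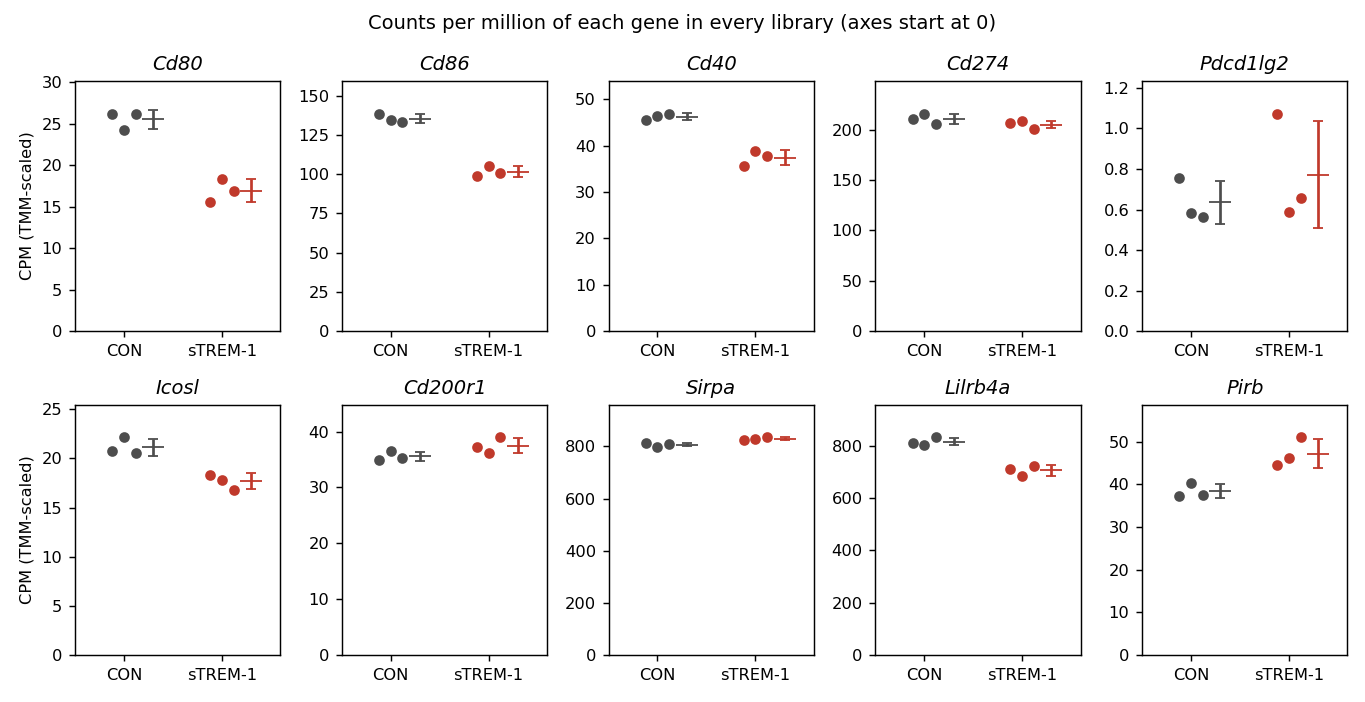
Each panel plots the TMM-scaled CPM of 1 gene (vertical axis, from 0) in the 3 CON libraries (grey points) and the 3 sTREM-1 libraries (red points), with the mean and SD beside them. Cd80, Cd86, Cd40, Icosl and Lilrb4a lie lower in every sTREM-1 library than in every CON library, Pirb and, by a narrow margin, Sirpa lie higher, and the other 3 genes overlap.

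Cd80 had the largest fall of the list. It was counted 1069, 994 and 1070 times without and 709, 783 and 672 times with sTREM-1, or 26.1, 24.2 and 26.2 CPM against 15.5, 18.4 and 16.9 CPM. Every sTREM-1 library thus lay well under the lowest CON library. The mean fell from 25.5 ± 1.11 to 16.9 ± 1.43 CPM (SD, n = 3 each), which is a log2 fold change of -0.59 (SE 0.07, adjusted p = 8.13e-08 by the quasi-likelihood test of edgeR). Of all tested genes, 3.68% had a lower log2 fold change than Cd80.

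Cd86, which encodes the other ligand of CD28 and CTLA4 and is the protein that the study stained as its M1 marker, was the more abundant ligand of the pair. It had 138.6, 134.6 and 133.2 CPM in the CON libraries and 99.0, 105.5 and 100.5 CPM in the sTREM-1 libraries. The groups were separated by more than the range within either of them. The log2 fold change was -0.41 (SE 0.032, adjusted p = 1.74e-11 by the quasi-likelihood test of edgeR), a fall to 0.751 of the CON level. The paper reports the opposite direction for the protein, with a shift of BV2 cells to the M1 phenotype after sTREM-1. For CD86 it gives the proportion of positive cells by flow cytometry, a different measure from RNA, and the difference was not tested here. The paper also reports weaker differentiation to the M2 phenotype, with CD206 as the marker in flow cytometry. Cd80 and Cd86 both lie on chromosome 16 of the GRCm38 build in the GENCODE annotation, Cd80 from 38455561 to 38496335 and Cd86 from 36603869 to 36666081.

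Cd40, a receptor of the TNF receptor family, had 45.4, 46.4 and 46.9 CPM in the CON libraries and 35.6, 38.8 and 37.8 CPM in the sTREM-1 libraries. Again no sTREM-1 library reached the CON range. Its log2 fold change was -0.31 (SE 0.047, adjusted p = 5.46e-06 by the quasi-likelihood test of edgeR). Icosl, the ligand of ICOS, had 20.8, 22.1 and 20.6 CPM in the CON libraries and 18.4, 17.9 and 16.8 CPM after sTREM-1. The separation of its groups was narrower than that of Cd40. Its log2 fold change was -0.26, with a 95% interval from -0.40 to -0.12 (adjusted p = 0.00438 by the quasi-likelihood test of edgeR).

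The PD-1 ligands lie side by side on chromosome 19 of GRCm38, Cd274 from 29367455 to 29388095 and Pdcd1lg2 from 29410919 to 29471161, and their levels were far apart. Cd274 had 210.5, 215.9 and 205.9 CPM in the CON libraries and 206.3, 208.3 and 200.8 CPM in the sTREM-1 libraries. The ranges overlapped, and the mean moved from 210.8 ± 5.02 to 205.2 ± 3.91 CPM (SD, n = 3 each). Its log2 fold change of -0.04 had a 95% interval from -0.09 to 0.02, so that the 95% interval leaves room for a fall but not for one as large as that of Cd86 (adjusted p = 0.321 by the quasi-likelihood test of edgeR). Pdcd1lg2 was rare, with counts of 31, 24 and 23 in CON and of 49, 25 and 26 in sTREM-1 libraries. The single count of 49 stood above the rest, and without that library (sTREM-1 replicate 1) the log2 fold change was -0.03 in place of 0.29. A change of Pdcd1lg2 was not detectable in these libraries, with a 95% interval from -0.47 to 1.04. Both genes have an annotated antisense gene across them, and whether the counting used the strand is not given in the sources used here.

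**Figure D2:**
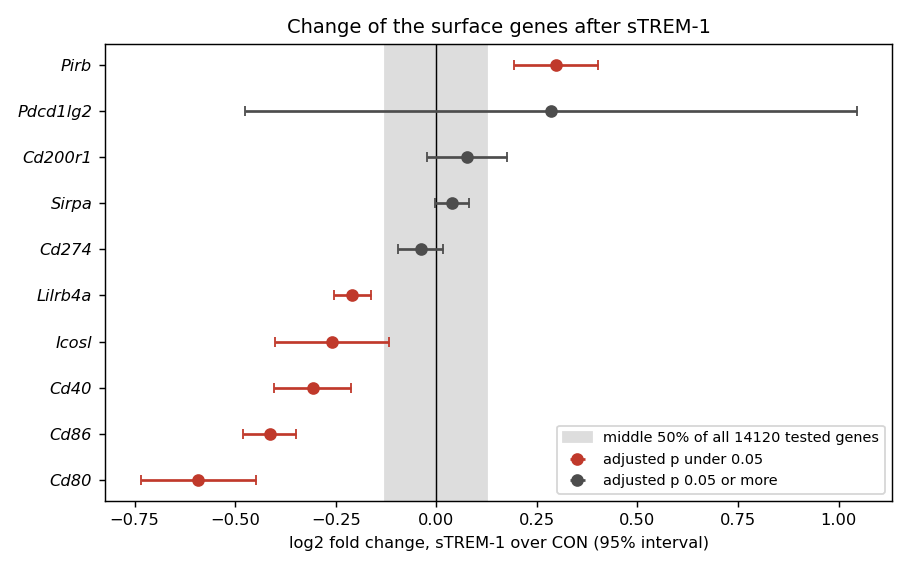
The horizontal axis gives the log2 fold change of sTREM-1 over CON with its 95% interval for each of the 10 genes, in red where the adjusted p-value was under 0.05, and the grey band holds the middle 50% of all tested genes (-0.13 to 0.13). Cd80, Cd86, Cd40, Icosl and Lilrb4a lie left of the band and Pirb right of it, while the wide interval of Pdcd1lg2 spans it.

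Among the inhibitory receptors, Pirb, which binds MHC class I molecules, was the gene that rose. It had 37.4, 40.3 and 37.6 CPM in the CON libraries and 44.5, 46.1 and 51.1 CPM in the sTREM-1 libraries. All sTREM-1 libraries were above all CON libraries, with a wider spread after stimulation. The mean rose from 38.4 ± 1.64 to 47.2 ± 3.41 CPM (SD, n = 3 each), which is a log2 fold change of 0.30 (SE 0.051, adjusted p = 3.36e-05 by the quasi-likelihood test of edgeR). Pirb lies on chromosome 7 of GRCm38 from 3711409 to 3720391. Its activating paralogues share much of its sequence, and the counting could have split reads between them. Pira6 rose as well (log2 fold change 0.30, adjusted p = 0.0468 by the quasi-likelihood test of edgeR), while Pira1 and Pira2 had log2 fold changes of 0.12 and -0.01 and did not pass.

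Lilrb4a, which encodes gp49B, moved the other way. It had 811.6, 805.5 and 833.2 CPM in the CON libraries and 711.5, 684.9 and 724.0 CPM after sTREM-1. The groups were apart by more than the range within each. The log2 fold change was -0.21 (SE 0.023, adjusted p = 1.7e-08 by the quasi-likelihood test of edgeR). The gene lies on chromosome 10 of GRCm38 from 51490956 to 51496611, and GENCODE places 2 further genes across it, 1 on each strand, so that reads of this locus cannot be told apart with certainty. Its neighbour Lilr4b, the activating gp49A gene, was looked up after the values were seen. Its mean fell from 438.0 ± 3.38 CPM to 394.5 ± 9.30 CPM (SD, n = 3 each), which is a log2 fold change of -0.15 (adjusted p = 8.66e-06 by the quasi-likelihood test of edgeR).

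Sirpa and Cd200r1 did not pass the test. Sirpa had 812.2, 799.3 and 808.6 CPM in the CON libraries and 823.5, 828.4 and 835.0 CPM in the sTREM-1 libraries. The groups did not overlap, but the difference was small, with a log2 fold change of 0.04 and a 95% interval from -0.0022 to 0.08 (adjusted p = 0.154 by the quasi-likelihood test of edgeR). Cd200r1 had 34.9, 36.5 and 35.2 CPM in the CON libraries and 37.2, 36.2 and 39.0 CPM after sTREM-1. Its groups overlapped through sTREM-1 replicate 2, and the log2 fold change of 0.08 had a 95% interval from -0.02 to 0.18 (adjusted p = 0.261 by the quasi-likelihood test of edgeR). Cd200r4, an activating paralogue, fell with a log2 fold change of -0.14 (adjusted p = 0.0013 by the quasi-likelihood test of edgeR). It had more counts than Cd200r1 in every library, but the 2 genes were not compared per length.

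Levels were compared between genes after division by the length of annotated exons, as CPM per kilobase. In the CON group Sirpa was the highest with 164 ± 1.36 and Lilrb4a followed with 156 ± 2.79 (SD, n = 3 each). Cd274 was at 58.2 ± 1.38 and Cd86 at 37.0 ± 0.766. The middle of the order held Cd40 at 13.6 ± 0.220, Cd200r1 at 10.6 ± 0.251 and Pirb at 8.60 ± 0.367. Cd80 at 6.89 ± 0.301, Icosl at 4.58 ± 0.187 and Pdcd1lg2 at 0.324 ± 0.0541 closed it. No neighbours in this order overlapped between their CON libraries. After sTREM-1, Cd200r1 (11.2 ± 0.411), Cd40 (11.0 ± 0.484) and Pirb (10.6 ± 0.762) could no longer be ordered, since their libraries overlapped. The order of Sirpa and Lilrb4a depended on the length used, for with the longest transcript Lilrb4a was at 217 and Sirpa at 203 CPM per kilobase in the CON group. With that length Icosl moved from 4.58 to 7.52 CPM per kilobase in the CON group, and after sTREM-1 it was above Cd80 (6.28 against 5.34) rather than below it.

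**Figure D3:**
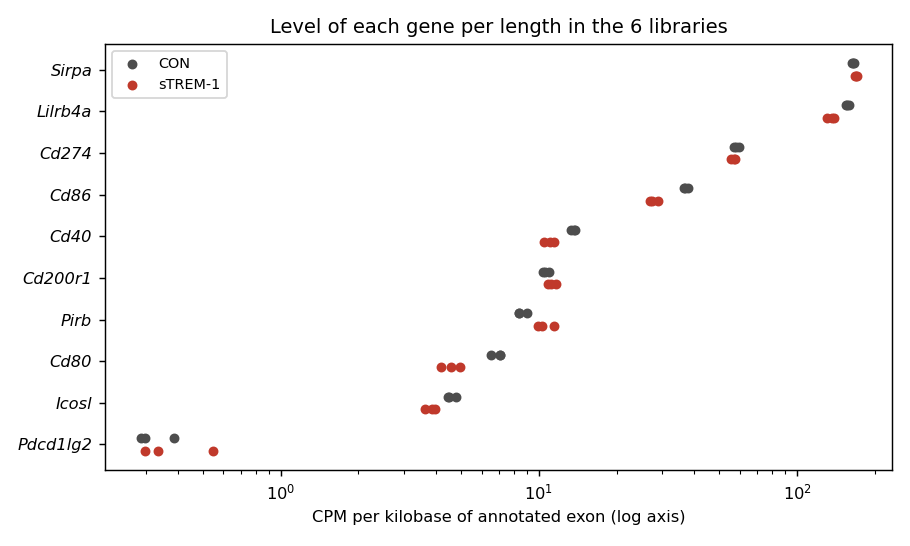
The horizontal axis (log scale) gives CPM per kilobase of annotated exon for each gene, with grey points for the 3 CON libraries and red points for the 3 sTREM-1 libraries. Sirpa and Lilrb4a are above 130 in all libraries and Pdcd1lg2 under 0.6, and the red points of Cd40, Cd200r1 and Pirb fall together.

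Ratios of counts within a library do not depend on how libraries are scaled, and 5 were computed. The ratio of Cd80 to Cd86 was 0.188, 0.180 and 0.197 in the CON libraries and 0.157, 0.174 and 0.169 in the sTREM-1 libraries, so that no sTREM-1 library reached the lowest CON ratio. The ratio of Cd274 to Cd80, the inhibitory to the stimulatory ligand, was 8.06, 8.91 and 7.86 in the CON libraries and 13.3, 11.3 and 11.9 after sTREM-1, which is 1.47 times the CON mean. The ratio of Lilrb4a to Pirb was 21.7, 19.98 and 22.2 in the CON libraries and 16.0, 14.8 and 14.2 after sTREM-1. The groups did not overlap for these 3 ratios, and each had p = 0.1 in a two-sided exact permutation test, the smallest that 3 libraries against 3 allow (0.167 after Benjamini-Hochberg adjustment over the 5 ratios). Sirpa to Cd47, the receptor to its ligand, was 5.54 ± 0.142 in the CON group and 5.80 ± 0.168 in the sTREM-1 group (SD, n = 3 each), with overlapping libraries (exact permutation p = 0.2, adjusted 0.25). Cd274 to Pdcd1lg2 varied from 192 to 369 with overlapping groups (exact permutation p = 0.5, adjusted 0.5).

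**Figure D4:**
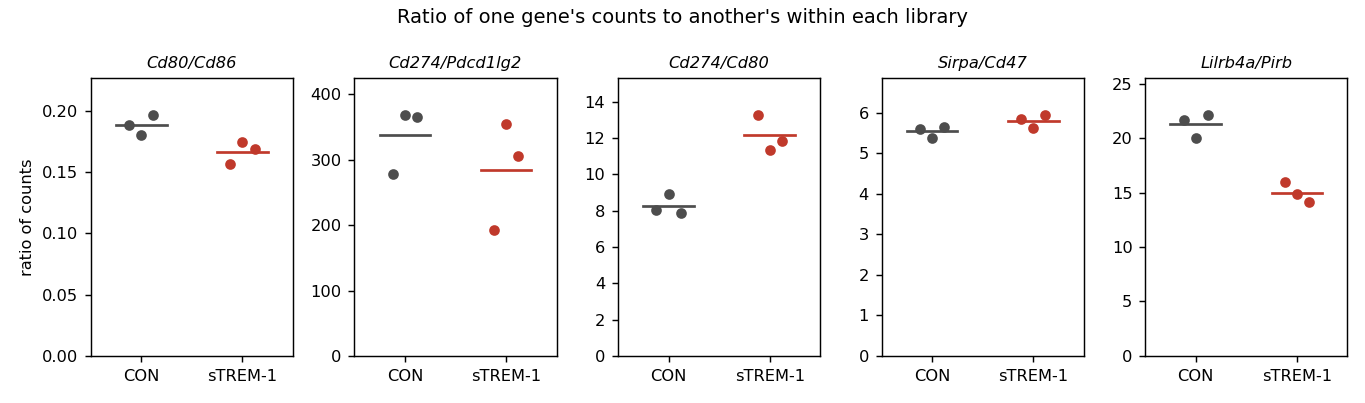
Each panel plots the ratio of the counts of 1 gene to those of another (vertical axis, no unit, from 0) in the 3 CON libraries (grey) and the 3 sTREM-1 libraries (red), with a line at the mean. Cd80/Cd86 and Lilrb4a/Pirb are lower and Cd274/Cd80 is higher in every sTREM-1 library, and the other ratios overlap.

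The promoters of a gene that fell, a gene that did not pass and a gene that rose are shown so that they can be compared by letter. RefSeq sequences of GRCm38.p6 were found for 5 of the 10 genes, and the 250 bases before the annotated start are given 5′ to 3′ for Cd80 (chr16:38458683-38458932, plus strand), Cd274 (chr19:29367188-29367437, plus strand) and Pirb (chr7:3720383-3720632, minus strand). Capitals mark matches, on either strand, to a loose core of the NF-kB site, GGG and CC with 5 bases of any kind between them. The Cd80 bases lie inside the gene of the GENCODE annotation, which begins at 38455561, so they do not precede the whole gene.
Cd80: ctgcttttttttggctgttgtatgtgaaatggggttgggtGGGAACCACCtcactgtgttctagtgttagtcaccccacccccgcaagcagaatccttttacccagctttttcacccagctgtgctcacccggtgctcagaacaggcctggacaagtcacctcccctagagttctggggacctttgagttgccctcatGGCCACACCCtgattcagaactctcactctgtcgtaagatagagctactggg
Cd274: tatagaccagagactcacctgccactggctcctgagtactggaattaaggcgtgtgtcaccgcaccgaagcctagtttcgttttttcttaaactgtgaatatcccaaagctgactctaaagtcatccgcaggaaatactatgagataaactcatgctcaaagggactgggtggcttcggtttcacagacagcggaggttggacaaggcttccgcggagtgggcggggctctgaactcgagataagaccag
Pirb: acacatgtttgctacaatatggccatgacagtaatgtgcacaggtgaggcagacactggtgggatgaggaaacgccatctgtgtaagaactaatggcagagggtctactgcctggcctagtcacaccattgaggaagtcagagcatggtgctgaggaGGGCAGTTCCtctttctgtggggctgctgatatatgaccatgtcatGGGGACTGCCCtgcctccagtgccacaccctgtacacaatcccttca
The core was matched at 2 places in Cd80 and at 3 in Pirb, of which 2 overlap, and nowhere in these bases of Cd274. Of the other promoters found, Icosl held 2 matches and Pdcd1lg2, which did not pass the test, held 1. The presence of a match therefore did not separate called from uncalled genes. By number, the called genes held 2 or 3 matches and the uncalled genes 0 or 1, but the called genes did not share a direction. Cd80 and Icosl fell, while Pirb rose. Only 5 promoters were found, and a link between matches and calls was not tested. The core was also matched in 45.8% of the 32851 promoters of the same length, so a match is common. How many of them held more than 1 match was not counted. A core of the interferon response element, GAAA and GAAA with 2 bases of any kind between them, was not matched in the 5 promoters, and it was matched in 2.98% of all promoters.

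Around these genes, 8 lists of related genes held 81 tested genes, of which sTREM-1 raised 26 and lowered 14 at an adjusted p-value under 0.05 (30.5% of all tested genes were called). Their median log2 fold change was 0.05. Of 8 tested genes of the costimulatory TNF family, 4 were higher and 1 was lower. Tnfrsf9, which encodes 4-1BB, rose from 46.1 ± 1.58 to 58.8 ± 0.286 CPM (SD, n = 3 each). Tnfsf13b (the B cell factor BAFF) and Tnfrsf14 (HVEM) rose with log2 fold changes of 0.53 and 0.60, and Tnfsf18 (the GITR ligand) fell by 1.08 on the log2 scale, from 87, 89 and 116 to 49, 41 and 53 counts. Tnfsf15 and Tnfrsf4 did not pass, with log2 fold changes of -0.04 and -0.34.

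Of 9 tested genes of other B7 proteins and adhesion or checkpoint ligands, 3 were higher and 1 was lower. Lgals9, a ligand of TIM-3, and Icam1, an adhesion ligand of T cells, rose with log2 fold changes of 0.40 and 0.37, as did Cd48 with 0.14. Havcr2, which encodes TIM-3, fell with a log2 fold change of -0.26. The B7 gene Vsir, which encodes VISTA, and Pvr had log2 fold changes of 0.06 and 0.01 and did not pass. Of the 12 tested genes of CD40 signalling, 3 were higher and 1 was lower. Tnfaip3, which ends NF-kB signalling, rose with a log2 fold change of 0.32, and the adaptors Tank and Traf6 rose with 0.16 and 0.11. Traf1 fell with a log2 fold change of -0.40. Nfkb2 and Traf3 had log2 fold changes of 0.05 and 0.07 and did not pass.

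**Figure D5:**
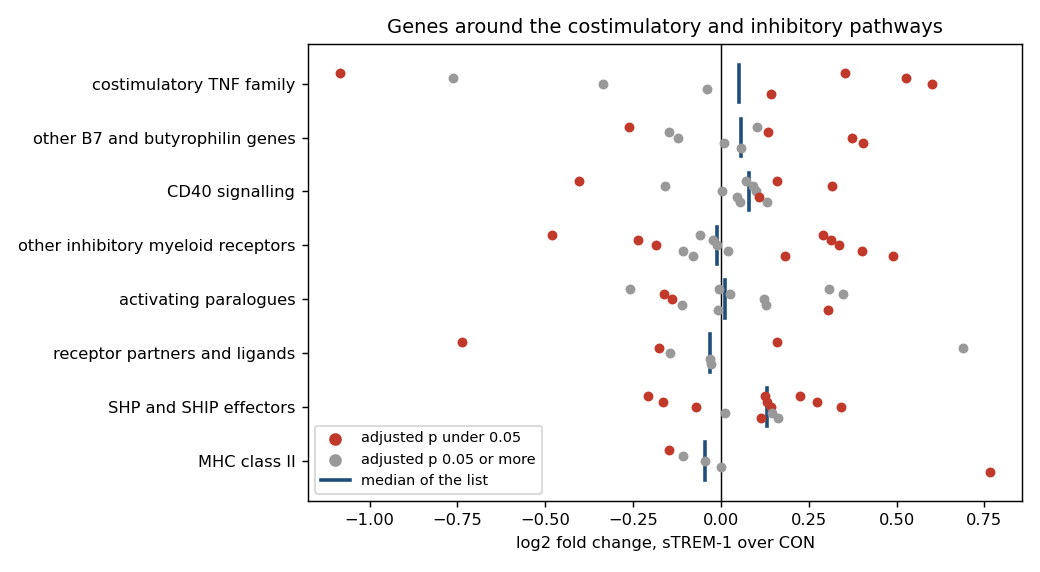
Each point is a tested gene of the list named at the left, placed by its log2 fold change of sTREM-1 over CON (horizontal axis) and drawn in red where the adjusted p-value was under 0.05, with a blue line at the median of the list. Red points lie on both sides of 0 in each list, and the medians run from -0.05 for MHC class II to 0.13 for the SHP and SHIP effectors.

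The other inhibitory myeloid receptors were also divided, with 6 higher and 3 lower of 15 tested. Cd72 rose from 38.2 ± 2.71 to 53.6 ± 1.45 CPM (SD, n = 3 each), and Milr1 and the collagen receptor Lair1 rose with log2 fold changes of 0.29 and 0.31. Cd300a fell with a log2 fold change of -0.19. Fcgr2b, the inhibitory Fc receptor, and Cd33 had log2 fold changes of -0.06 and -0.02 and did not pass. Of the 12 tested activating paralogues, 1 was higher (Pira6, above) and 2 were lower (Cd200r4, above, and Cd300ld, log2 fold change -0.16), while Cd300lb (0.03) and Pira2 did not pass. Of the 13 tested effectors of these receptors, 7 were higher and 3 were lower. Csk, a kinase that restrains Src kinases, and the lipid phosphatase Inppl1 (SHIP2) rose with log2 fold changes of 0.34 and 0.22, and the adaptor Fyb with 0.14. The Src kinase Lyn fell with a log2 fold change of -0.21. Dok3 and Dok2 had log2 fold changes of 0.01 and 0.16 and did not pass.

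Of 7 tested partners of these proteins, 1 was higher and 2 were lower. Thbs1, whose product binds CD47, fell from 9.39 ± 0.680 to 5.62 ± 0.894 CPM (SD, n = 3 each), and Angptl2, whose product binds PIR-B, fell with a log2 fold change of -0.18. Cd28 rose with a log2 fold change of 0.16. Cd47 and Rgmb had log2 fold changes of -0.03 and -0.14 and did not pass. Cd200 and Cd40lg were listed at 0 in all libraries. Of 5 tested genes of the MHC class II list, H2-DMb1 was called higher (log2 fold change 0.77) and Rfxap lower (-0.15), and Cd74 (-0.05) and Rfx5 (-0.0011) did not pass. H2-Aa, H2-Ab1 and H2-Eb1 were listed at 0 in all libraries, but so were the broadly expressed genes Csnk2b, Bag6 and Clic1 in the same stretch of chromosome 17. Of the 10 genes checked by name, 9 were at 0 in all libraries, and Ddx39b was not. From Daxx to H2-Q10, 52 of 96 protein-coding genes in the table (54.2%) had 0 counts in all libraries, against 31.8% elsewhere. Zeros and low counts in this stretch, which holds H2-DMb1, Aif1 and Tnf, therefore cannot be read as expression levels.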

How the data were processed

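RNA of BV2 cells was sequenced in 3 CON and 3 sTREM-1 libraries. The paper's methods give a larger n for this experiment than these 3 libraries per group. The values deposited by the authors are whole counts for each symbol, without normalization. Their methods name RSEM and edgeR. The submitters' processing notes name HISAT2 2.0.4 and the human builds hg19 and GRCh38, while the table holds mouse symbols. Annotation and strand are not given in the sources used here.

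Counts of libraries of a group differed by more than sampling noise (chi-square per gene from 3.45 to 4.99), so each library was treated as a replicate. This spread does not show whether the libraries came from separate experiments. After filterByExpr with a minimum count of 10 and TMM scaling, the groups were compared in edgeR 4.0.16 (R 4.3.3) by its quasi-likelihood test without covariates, and a gene was called when its p-value, adjusted by Benjamini-Hochberg, was under 0.05. Standard errors (SE) were derived from F and the log2 fold change. Exon lengths and gene coordinates came from GENCODE M21 of GRCm38. Simulated counts were used to check the steps.

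The genes and lists were chosen with earlier results of these data known. All 10 genes are named, with at most 4 called genes of smallest p-value and 2 uncalled genes of highest counts per related list. Alternatives were RLE factors, other filters, DESeq2 1.42.0, edgeR's exact test, limma-voom (limma 3.58.1), a replicate block, each library left out, thinning, other thresholds and another gene length. Protein sequences were not analysed here. A further promoter pattern that was searched is not reported here.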

Additional observations from a re-analysis of the deposited data

How the results depend on the processing

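The 6 genes called were called in all 14 refits (RLE factors, other filters, DESeq2, edgeR's exact test, limma-voom, replicate block, each library left out, thinning), and the 4 others in none of them. With at least a 1.2-fold change added to the threshold, 3 genes were lower in place of 5, since the falls of Icosl and Lilrb4a are smaller than that. The log2 fold change of Pdcd1lg2 ran from -0.0343 (without sTREM-1 replicate 1) to 0.4472 (without sTREM-1 replicate 2) when a library was left out. The other 9 genes kept their direction. In the fit with a replicate block, 5 genes were lower and 1 higher, and the block changed none of these calls. Deviations of same-numbered libraries correlated at -0.0178, -0.0335 and -0.0137 across genes, which gave no sign of pairing. Libraries of different numbers were not compared in this way, so a weak pairing could be missed. Over all tested genes, 4613 were called with the block and 4312 without it. Of the related genes, 33 to 42 were called under the alternatives, against 40. Pdcd1lg2 had counts under 50 that also varied between libraries of a group, and its interval is the widest of the 10.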

Other observations

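Cd28, best known as the T cell receptor for CD80 and CD86, was counted 1946, 2069 and 1941 times in CON and 2559, 2357 and 2023 times in sTREM-1 libraries, while the T cell genes Cd3e, Cd3g, Cd8a and Trac were at 0 in all 6 libraries. It rose from 48.5 ± 1.68 to 54.1 ± 2.72 CPM (SD, n = 3 each), with an edgeR quasi-likelihood adjusted p of 0.00712. Other T cell partners were rare in the same libraries. Pdcd1, which encodes PD-1, had 46 to 82 counts, Icos had 7 to 28 counts and Ctla4 had 0 to 10 counts.

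The next genes were named after their values were seen. Zbtb46, a transcription factor gene used as a marker of dendritic cells, fell from 6.56 to 4.32 CPM between the group means, a log2 fold change of -0.60 (edgeR quasi-likelihood adjusted p = 0.00025), while Itgax and Batf3, other genes of that list, had log2 fold changes of -0.06 and -0.14 and did not pass. Csf1r, the receptor gene of the microglial growth factors, rose from 520.7 to 752.9 CPM (log2 fold change 0.53, edgeR quasi-likelihood adjusted p = 2.88e-17).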
